A study of Mus musculus with 8 samples.

Results

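The genes of the cholesterol pathway were followed together with Rnf145 in immortalized mouse embryonic fibroblasts (MEFs) with and without SLMAP3. The set holds 30 genes of the 55401 listed, taken by gene name, and all 30 were among the 15461 genes that passed the filter on low counts. It comprises Rnf145, 8 genes of the isoprenoid stage of cholesterol synthesis up to farnesyl and geranylgeranyl diphosphate, 11 genes from squalene to cholesterol, 5 genes of SREBP control and 5 genes of sterol transport and liver X receptor (LXR) response. The set was chosen by reading the differences between SLMAP3-/- and WT lines in these same libraries, so those differences are given as a description and carry no test of their own.

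RNA-seq was done on 8 lines, 4 SLMAP3-/- and 4 WT, with 1 library per line. All came from E14.5 embryos of the B6C3F1 strain without head and organs, and all were immortalized by transfection of SV40 large T antigen and grown with fetal bovine serum. The SLMAP3-/- lines carry a deletion of exon 3 of Slmap, made by Cre under the CMV promoter in floxed mice, and the study describes immortalized lines as having lost the shorter SLMAP2 isoform as well. Values are CPM, counts corrected for library size with TMM factors, with totals of 49878808 to 63322675 estimated counts per line. Since the labels do not tie each library to its own embryo, p-values measure the spread between these 8 samples.

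Slmap itself was at 44.3, 32.7, 36.3 and 39.7 CPM in the SLMAP3-/- lines and at 124, 139, 143 and 141 CPM in the WT lines, so each library matched its label. The list of 8 fibroblast markers summed to 10091 to 11956 CPM in SLMAP3-/- and 11290 to 14227 CPM in WT lines. A single marker reached 7006 CPM, so the sum does not show that each marker was abundant. Decorin and lumican, which many fibroblasts make, were the low members of that list. Markers of epithelial, haematopoietic and muscle cells summed to under 5 CPM in every line. Endothelial markers were higher, with sums of 16.6 to 40.5 CPM in SLMAP3-/- and 9.46 to 27.5 CPM in WT lines. Neural markers summed to 16.2 to 38.3 CPM in SLMAP3-/- and 17.2 to 26.9 CPM in WT lines. In bulk RNA, fewer cells of a type and less RNA per cell cannot be told apart.

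Cells make cholesterol from acetyl-CoA through mevalonate, isoprenoid diphosphates, squalene and lanosterol. SREBP2, encoded by Srebf2, turns these genes on together when membrane sterol is low, while SREBP1 acts more on fatty acid synthesis. SCAP escorts both factors from the endoplasmic reticulum to the Golgi for cleavage, INSIG1 and INSIG2 hold SCAP back when sterol is plentiful, and LXR answers high sterol by raising export. RNF145 is a membrane ubiquitin ligase of the endoplasmic reticulum, induced by LXR and known to act on SCAP.

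SREBP binds sterol response elements next to CCAAT boxes, which NF-Y binds, close to the start of its target genes. The 250 bases before the RefSeq start sites were therefore searched, on both strands, for TCACNCCA, a core form of the sterol element, for CCAAT and for the E-box CACGTG. RefSeq promoters in GRCm38.p6 were found for 25 of the 30 genes, the exceptions being Fdps, Fdft1, Sqle, Stard4 and Npc1. Below are all genes of the set that hold TCACNCCA (Hmgcs1, Msmo1 and Srebf2), with Ggps1 and Rnf145 as genes that do not. Hmgcs1 lies at chr13:119690101-119690350 on the plus strand, Msmo1 at chr8:64733579-64733828 on the minus strand, Srebf2 at chr15:82147019-82147268 on the plus strand, Ggps1 at chr13:14063489-14063738 on the minus strand and the first of 3 Rnf145 promoters at chr11:44518706-44518955 on the plus strand. Each is written 5′ to 3′ on the gene's own strand, and capitals mark TCACNCCA and CCAAT, the latter also in its reverse form ATTGG.
Hmgcs1: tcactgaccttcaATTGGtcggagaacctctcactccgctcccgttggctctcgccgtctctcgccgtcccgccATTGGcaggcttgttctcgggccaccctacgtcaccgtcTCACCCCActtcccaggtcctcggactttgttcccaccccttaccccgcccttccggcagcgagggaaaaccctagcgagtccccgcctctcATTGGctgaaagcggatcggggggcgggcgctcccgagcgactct
Msmo1: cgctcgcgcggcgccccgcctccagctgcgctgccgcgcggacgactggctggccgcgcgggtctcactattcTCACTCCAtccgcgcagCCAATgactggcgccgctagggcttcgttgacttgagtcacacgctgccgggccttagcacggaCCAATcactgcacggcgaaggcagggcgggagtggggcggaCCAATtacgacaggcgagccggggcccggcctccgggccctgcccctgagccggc
Srebf2: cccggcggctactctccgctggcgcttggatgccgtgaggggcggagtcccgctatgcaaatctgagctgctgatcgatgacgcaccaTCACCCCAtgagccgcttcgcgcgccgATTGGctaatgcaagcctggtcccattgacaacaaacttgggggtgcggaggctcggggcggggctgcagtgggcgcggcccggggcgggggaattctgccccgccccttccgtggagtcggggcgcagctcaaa
Ggps1: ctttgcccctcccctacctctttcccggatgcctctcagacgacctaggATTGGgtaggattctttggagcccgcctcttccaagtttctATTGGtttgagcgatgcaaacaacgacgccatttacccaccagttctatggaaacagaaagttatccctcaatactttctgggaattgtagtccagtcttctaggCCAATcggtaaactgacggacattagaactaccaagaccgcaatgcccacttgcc
Rnf145: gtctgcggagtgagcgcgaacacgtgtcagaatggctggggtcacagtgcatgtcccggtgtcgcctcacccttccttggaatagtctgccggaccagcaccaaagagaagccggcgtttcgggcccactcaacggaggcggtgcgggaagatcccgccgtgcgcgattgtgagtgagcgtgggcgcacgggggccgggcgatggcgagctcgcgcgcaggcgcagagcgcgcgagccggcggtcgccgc

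The sterol element core began 137 bases before the start in Hmgcs1, 177 bases before it in Msmo1 and 162 bases before it in Srebf2. It was found in 3 of the 25 genes with a promoter, and in 4.20% of all genes in the RefSeq table. CCAAT was much more widespread, in 20 of the 25 genes and in 15 of the 16 synthesis genes with a promoter, the exception being Acat2, against 37.5% of all genes. Hmgcs1, Msmo1 and Ggps1 each held 3 CCAAT motifs. CACGTG occurred in 7 of the 25 genes, including Rnf145 and Insig1, and in 6.86% of all genes. None of the 3 Rnf145 promoters held TCACNCCA or CCAAT in its 250 bases. These matches are letters in a window and not measured binding.

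Between genotypes, Rnf145 was lower in every SLMAP3-/- line than in any WT line. Rnf145 lies at chr11:44518964-44565520 on the plus strand of GRCm38. It stood at 82.4, 61.3, 67.1 and 60.9 CPM in SLMAP3-/- replicates 1 to 4 and at 87.1, 124, 105 and 107 CPM in WT replicates 1 to 4. The closest lines of the genotypes were SLMAP3-/- replicate 1 and WT replicate 1. The means were 67.9 ± 10.1 (SD, n = 4) in SLMAP3-/- and 106 ± 15.0 CPM (SD, n = 4) in WT lines. On the log2 scale the difference was -0.64, with SE, its standard error, of 0.14.

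**Figure D1:**
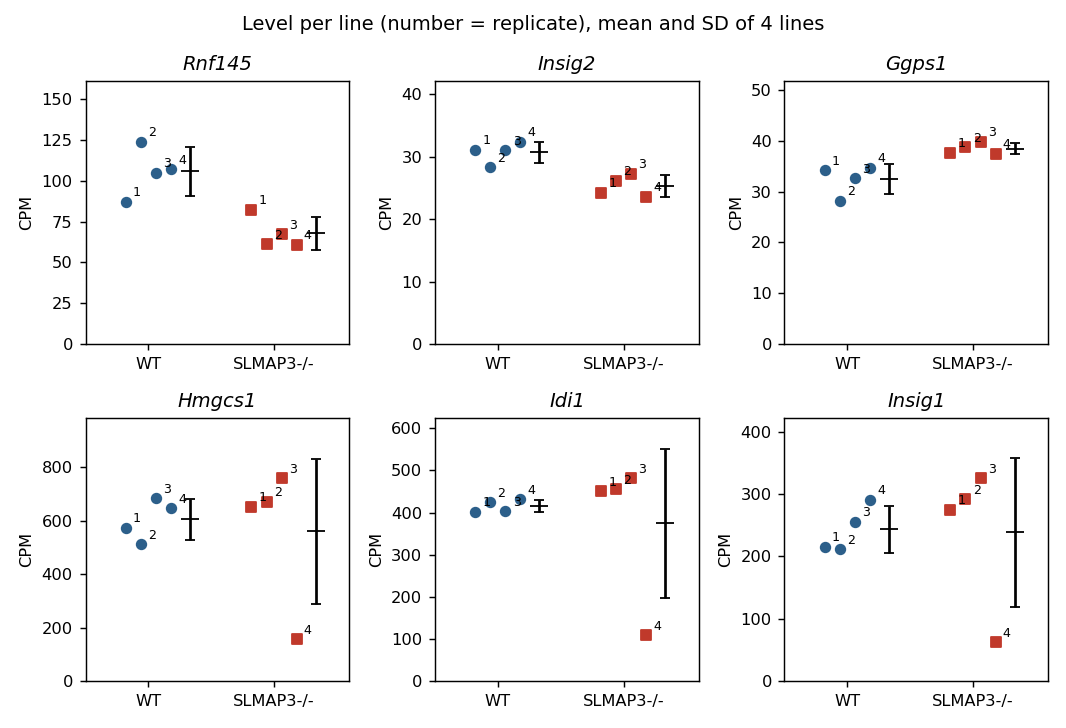
Level in CPM (y axis, from 0) of 6 genes in each WT (blue circles) and SLMAP3-/- line (red squares), numbered by replicate, with black bars for the mean and SD of 4 lines. Rnf145 and Insig2 are lower and Ggps1 is higher in all SLMAP3-/- lines, while Hmgcs1, Idi1 and Insig1 are low in SLMAP3-/- replicate 4, at 157, 109 and 61.7 CPM.

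No gene of the set passed an adjusted p of 0.05 in edgeR (0 of 30), where 0.00647% of all tested genes did. By DESeq2, 0 of 30 passed, and 0.0636% of all tested genes did. At an unadjusted p under 0.05 in edgeR there were 3 of 30, namely Rnf145, Insig2 and Ggps1, beside 1.81% of all tested genes, and DESeq2 and limma-voom also gave 3 each. The same 3 genes were those whose genotypes did not overlap, beside 1.25% of all tested genes. As these comparisons chose the set, nothing is read from the counts.

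Insig2 encodes a protein that retains SCAP in the endoplasmic reticulum. Its level was 24.3, 26.2, 27.3 and 23.6 CPM in SLMAP3-/- lines and 31.1, 28.4, 31.05 and 32.4 CPM in WT lines. The lines were tight within each genotype, with a log2 fold change of -0.28 (SE 0.09). Ggps1 makes geranylgeranyl diphosphate, a lipid attached to small GTPases, on a branch that leaves the route to cholesterol. It measured 37.7, 38.7, 39.8 and 37.4 CPM in SLMAP3-/- lines and 34.2, 28.2, 32.6 and 34.7 CPM in WT lines. The log2 fold change was 0.24 (SE 0.09). Arid4b overlaps Ggps1 on the opposite strand, and whether strand was used in counting is not given in the sources used here. Its own genotypes overlapped, with a log2 fold change of -0.03 (SE 0.11).

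The cholesterol synthesis genes behaved differently. Across 8 lines they varied far more with 1 line than with genotype, since SLMAP3-/- replicate 4 was low for nearly all of them. In the first steps, Hmgcs1, the HMG-CoA synthase, was at 652, 672, 759 and 157 CPM in SLMAP3-/- replicates 1 to 4 and at 574, 513, 685 and 648 CPM in WT replicates 1 to 4. Replicate 4 of SLMAP3-/- was alone far below, with 23.4% of the median of the other 3 SLMAP3-/- lines, and the means were 559.9 ± 272 and 605 ± 76.6 CPM (SD, n = 4 each). Idi1, which isomerizes isopentenyl diphosphate, was nearly constant elsewhere. Its levels were 451, 455, 481 and 109 CPM in SLMAP3-/- and 402, 424, 403 and 432 CPM in WT lines.

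Fdps, the farnesyl diphosphate synthase, had levels of 359.5, 418, 505 and 126 CPM in SLMAP3-/- lines and 363, 349, 392.2 and 434.5 CPM in WT lines. Mvk, the mevalonate kinase, was at 84.8, 83.9, 98.8 and 36.2 CPM in SLMAP3-/- lines and at 61.2, 73.5, 78.9 and 74.2 CPM in WT lines. Replicate 4 was below every WT line in both genes, while the other SLMAP3-/- lines were above every WT line for Mvk and spread around them for Fdps. Acat2 (acetoacetyl-CoA thiolase), Pmvk and Mvd, the kinase and decarboxylase that follow Mvk, stood at 34.1%, 34.2% and 26.5% of the median of the other SLMAP3-/- lines in replicate 4. Ggps1 was the exception of this group, with 96.8%.

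Among the genes from squalene onward, Sqle, the squalene epoxidase, was at 305, 314, 376 and 132 CPM in SLMAP3-/- and at 296, 331, 302 and 359 CPM in WT lines. Lss, which closes squalene epoxide to lanosterol, was at 202, 239.7, 318 and 59.8 CPM in SLMAP3-/- and at 216, 182, 213 and 245 CPM in WT lines. Replicate 3 of SLMAP3-/- was the highest line and replicate 4 the lowest for both genes. Cyp51, the lanosterol demethylase, was at 404, 485, 437 and 136 CPM in SLMAP3-/- and at 414, 371, 398 and 475 CPM in WT lines. Msmo1, a sterol methyl oxidase, was at 297, 387, 375 and 97.4 CPM in SLMAP3-/- and at 313, 311, 296 and 309 CPM in WT lines. Here the WT lines were close together, and SLMAP3-/- replicate 4 was again alone below them.

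Dhcr7, the reductase that turns dehydrocholesterol into cholesterol, was at 98.0, 103, 162 and 27.1 CPM in SLMAP3-/- and at 101, 83.4, 125 and 122 CPM in WT lines. Fdft1, Nsdhl, Hsd17b7 and Sc5d, which act between farnesyl diphosphate and the last sterols, were at 33.2%, 36.1%, 33.4% and 37.1% of the median of the other SLMAP3-/- lines in replicate 4. Ebp, a sterol isomerase, was less low. It measured 43.9, 48.8, 52.4 and 33.3 CPM in SLMAP3-/- and 37.3, 39.6, 40.3 and 48.1 CPM in WT lines, with replicate 4 at 68.4% of the other SLMAP3-/- lines. Tm7sf2, a sterol reductase, spread most within genotypes, from 4.91 to 41.5 CPM in SLMAP3-/- and from 12.9 to 28.5 CPM in WT lines. Its transcripts share a stretch of 532 bases with Vps51 on the same strand, whose count reached 593% of that of Tm7sf2, so its counts are uncertain. Acat2, Idi1 and Fdps share 357, 684 and 929 bases with Acat3, Gm13502 and Gm43738, whose counts were at most 0.797%, 3.44% and 0.129% of theirs. Fdft1, Cyp51 and Srebf1 are overlapped on the opposite strand by Ctsb, Akap9 and Rai1, which were at 573, 66.2 and 92.4 CPM in SLMAP3-/- replicate 4 and were not low there.

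**Figure D2:**
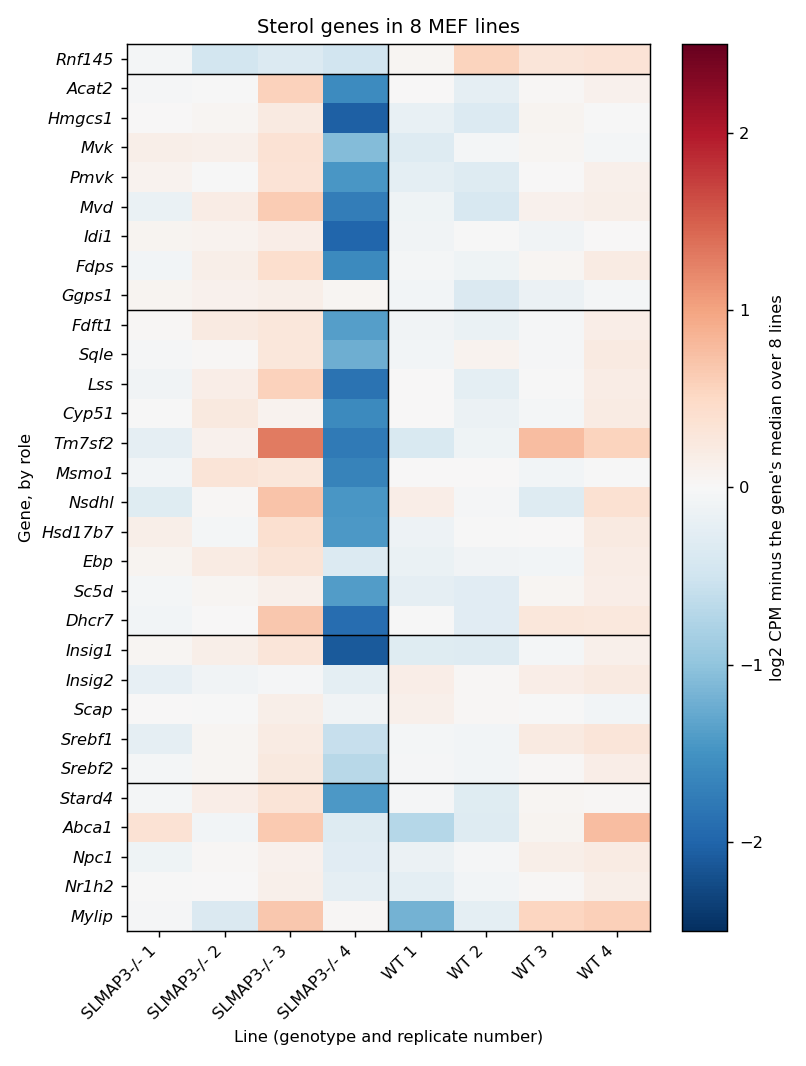
Heat map of the 30 genes (rows, separated by role) in 8 lines (columns). Colour is the log2 CPM minus the gene's median over the 8 lines, blue below and red above. The column of SLMAP3-/- replicate 4 is deep blue for 17 of the 19 synthesis genes and for Insig1 and Stard4, while Rnf145 there is near the other SLMAP3-/- lines.

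The low level in SLMAP3-/- replicate 4 was common to the pathway. Each line was set against the median of the other 3 lines of its own genotype, on the log2 CPM scale. In SLMAP3-/- replicate 4, 17 of the 19 synthesis genes and 19 of the 30 genes of the set were under 50% of the other lines, beside 7.41% of all tested genes. The 17 genes ranged from 23.4% to 42.8%, and the median difference over the 19 synthesis genes was -1.59, with -0.01 over all tested genes. In the other 7 lines the median over the synthesis genes lay between -0.18 and 0.34, and 0 of the 19 were under 50%. SLMAP3-/- replicate 3 lay at the upper end, with 2 synthesis genes, Tm7sf2 and Nsdhl, above 200% of the other lines.

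SLMAP3-/- replicate 4 did not stand apart in size or over all genes. Its total of 52116519 estimated counts was within the range of the other lines. The share of all tested genes under 50% of the other lines of the genotype was 10.9% in WT replicate 1 and 7.84% in WT replicate 2, both above its 7.41%, and smaller in the other 5 lines. Its summed fibroblast markers, at 10091 CPM, were the lowest of the 8 lines, and their part in the result was not tested. With 1 library of this line, a property of the line and of its culture or harvest cannot be told apart.

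**Figure D3:**
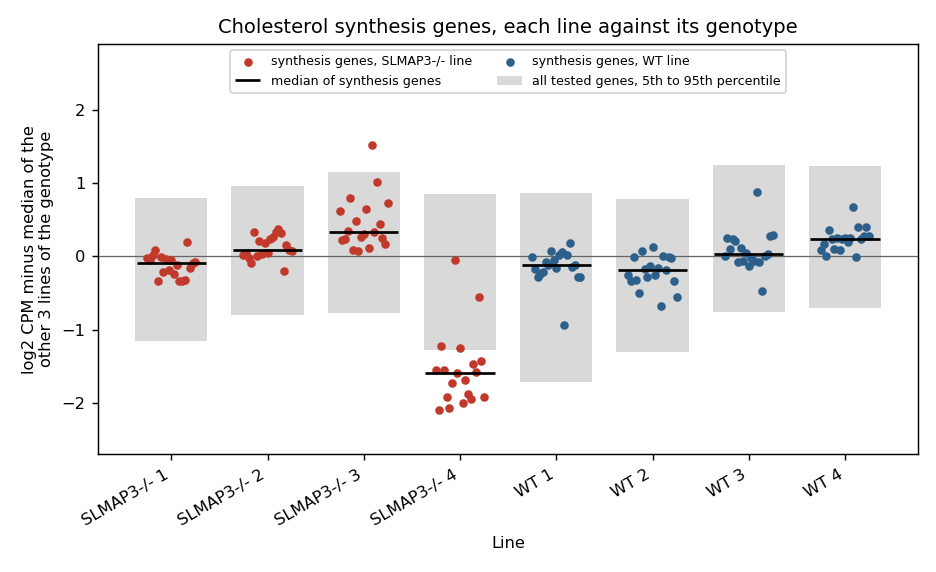
Difference in log2 CPM of each of 19 synthesis genes (points) from the median of the other 3 lines of the genotype, by line, with the median of the 19 genes as a black bar and the range from the 5th to the 95th percentile of all tested genes in grey. SLMAP3-/- replicate 4 has a median of -1.59, below its grey range, and the other 7 medians lie between -0.18 and 0.34.

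Control genes of SREBP differed from each other. Insig1, itself a target of SREBP, lay outside the range of the other lines in SLMAP3-/- replicate 4, with 275, 292, 325 and 61.7 CPM in SLMAP3-/- and 215, 211, 255 and 291 CPM in WT lines. At 21.2% of the other SLMAP3-/- lines it was lower there than any synthesis gene. Srebf2 was at 486, 516, 595 and 311 CPM in SLMAP3-/- and at 490.1, 476, 509.8 and 562 CPM in WT lines. Srebf1 was at 124, 149, 167 and 97.3 CPM in SLMAP3-/- and at 140.4, 137, 169 and 179 CPM in WT lines. Both transcripts were lowest in SLMAP3-/- replicate 4, at 60.3% and 65.3% of the other SLMAP3-/- lines, which is less low than 17 of the 19 synthesis genes.

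Scap was steady, at 97.0, 94.7, 106 and 90.4 CPM in SLMAP3-/- and 105, 97.8, 94.9 and 92.0 CPM in WT lines. Insig2, whose genotypes did not overlap, was at 90.1% of the other SLMAP3-/- lines in replicate 4. The paralogs Insig1 and Insig2 ordered the SLMAP3-/- lines alike and differed in how low replicate 4 was.

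The transport genes divided in a similar way. Stard4, which carries cholesterol between membranes and is a target of SREBP, was at 155, 179, 200.2 and 59.4 CPM in SLMAP3-/- and at 156, 129, 166 and 164 CPM in WT lines. With 33.2% of the other SLMAP3-/- lines in replicate 4 it was as low as the synthesis genes. Npc1, which exports cholesterol from lysosomes, was at 48.9, 53.9, 57.5 and 43.6 CPM in SLMAP3-/- and at 48.1, 52.1, 58.5 and 60.8 CPM in WT lines. Nr1h2, which encodes LXR-beta, ranged from 37.9 to 48.6 CPM in SLMAP3-/- and from 37.4 to 49.4 CPM in WT lines. Neither was under 50% in any line.

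The LXR targets Abca1, a cholesterol exporter, and Mylip, a ligase that removes lipoprotein receptors, varied widely in both genotypes. Abca1 was at 18.1, 13.4, 22.2 and 11.3 CPM in SLMAP3-/- and at 8.61, 11.3, 14.8 and 24.2 CPM in WT lines. Mylip was at 31.8, 25.3, 51.1 and 32.7 CPM in SLMAP3-/- and at 14.3, 27.2, 46.9 and 48.9 CPM in WT lines. Their extremes lay in WT replicates 1 and 4 and SLMAP3-/- replicate 3, and Mylip was not low in SLMAP3-/- replicate 4. Rnf145, described as an LXR target too, was at 90.65% of the other SLMAP3-/- lines there.

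Since 1 line set the mean of the synthesis genes in SLMAP3-/-, the genotype difference was also read without it. With all 8 lines, 4 of the 19 log2 fold changes were positive, with a median of -0.09 and a range from -0.19 to 0.24. Without SLMAP3-/- replicate 4, 19 of 19 were positive, with a median of 0.20 and a range from 0.04 to 0.31. Thus the direction of the group turned with that line. The line was left out because it was the lowest, which by itself raises these fold changes. The 19 genes also moved together, so their signs are not separate observations. The median over all tested genes was 0.00 with and -0.01 without it.

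Mvk had a log2 fold change of 0.08 (SE 0.27) over 8 lines and of 0.31 (SE 0.11) over 7 lines. Insig1 went from -0.03 (SE 0.43) to 0.29 (SE 0.14). In contrast Rnf145 kept its value, with -0.64 and -0.59. Over 7 lines, edgeR gave 4 of the 30 an unadjusted p under 0.05, with Mvk added to the other 3, beside 2.01% of all tested genes, and 0 of 30 passed an adjusted p of 0.05. The genotypes did not overlap in 5 of the 30, with Mvk and Idi1 higher in SLMAP3-/- lines, beside 3.39% of all tested genes. The line was left out for its low values and the genotype comparison chose the set, so nothing is read from these counts.

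**Figure D4:**
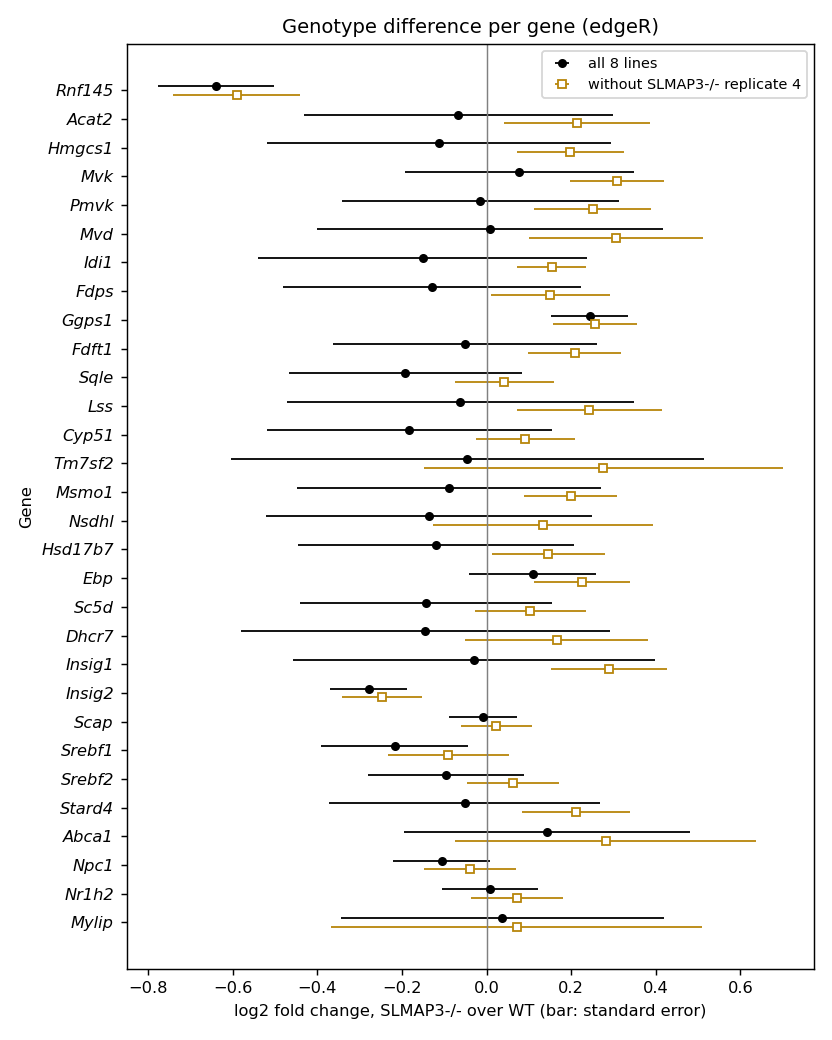
The log2 fold change of SLMAP3-/- over WT lines (x axis) with its standard error for each of the 30 genes, over all 8 lines (black circles) and without SLMAP3-/- replicate 4 (open squares). The 19 synthesis genes have a median of -0.09 with and 0.20 without that line, while Rnf145 is at -0.64 and -0.59.

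Whether Rnf145 moves with the sterol genes was examined within genotypes, since its genotypes are apart and a pooled correlation would reflect that gap. The log2 CPM of each gene was centred on the mean of its genotype, and correlations were taken over the 8 lines, with exact two-sided permutation tests over all arrangements of lines within genotypes. Over the 19 synthesis genes, the median Pearson's r with Rnf145 was 0.23, from -0.56 to 0.43, and the median Spearman's rho was 0.19. Over all tested genes the median r with Rnf145 was -0.004. None of the 29 relations of Rnf145 with the other genes of the set passed an adjusted p of 0.05, with Benjamini-Hochberg adjusted exact p between 0.852 and 0.917 for Pearson's r and between 0.921 and 1.0 for Spearman's rho.

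By Pearson's r the highest relation among synthesis genes was with Mvk, with r = 0.43 (exact permutation p = 0.335, adjusted 0.852) and rho = 0.43 (exact permutation p = 0.273, adjusted 0.921). Spearman's rho was highest for Hsd17b7, at 0.52 (exact permutation p = 0.189, adjusted 0.921). Ggps1 had the lowest of both, with r = -0.56 (exact permutation p = 0.220, adjusted 0.852) and rho = -0.26 (exact permutation p = 0.561, adjusted 0.921). Scap, on which RNF145 is known to act, had r = -0.11 (exact permutation p = 0.774, adjusted 0.852) and rho = 0.0 (exact permutation p = 1.0). Leaving out WT replicate 1 and SLMAP3-/- replicate 1, the lines farthest from the median of Rnf145, r was 0.31 for Mvk, -0.63 for Ggps1 and 0.72 for Scap, and the median over the synthesis genes was 0.19. Scap therefore changed sign with those lines.

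The sign of the median depended on SLMAP3-/- replicate 4. Without it, the median r of Rnf145 with the synthesis genes was -0.32 and 4 of 19 were positive, instead of 18 of 19. In that line the mean of the synthesis genes was 1.20 below its genotype on the log2 scale, while Rnf145 was 0.15 below. SLMAP3-/- replicate 1 and WT replicate 2 had the highest Rnf145 of their genotypes, by 0.29 and 0.24, with synthesis means of 0.21 and -0.14. A common movement of Rnf145 and the synthesis genes was not detected over 8 lines.

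**Figure D5:**
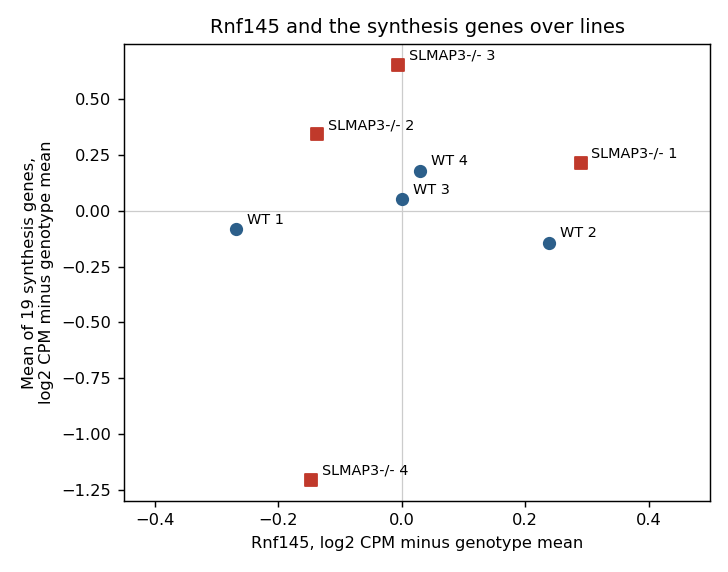
Rnf145 (x axis) against the mean of 19 synthesis genes (y axis) in each of 4 SLMAP3-/- (red squares) and 4 WT lines (blue circles), both as log2 CPM minus the mean of the genotype. SLMAP3-/- replicate 4 is at -0.15 and -1.20, and the other 7 lines show no common direction.

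The synthesis genes moved with each other instead. Over the 171 pairs of the 19 genes, the median r of the centred levels was 0.95, with a lowest of 0.13, and the median over pairs of all tested genes was 0.00. Pairs without Ggps1 had r of at least 0.80 over 8 lines, and of at least -0.09 with a median of 0.68 without SLMAP3-/- replicate 4. Without SLMAP3-/- replicate 4 the median over the 171 pairs was 0.66, so that the order of the other 7 lines was shared in part. The gene of the set outside synthesis whose level followed the mean of the synthesis genes most closely was Srebf2, with r = 0.99 both over 8 and over 7 lines. Insig1 and Stard4 had r of 0.99 each over 8 lines, and 0.88 and 0.86 over 7. These pairs share libraries and depth, and no test was made on them.

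Other genes of lipid metabolism were read from lists by function. In the lists of fatty acid synthesis, ubiquitin ligases, cholesterol uptake and LXR genes, 0 genes passed an adjusted p of 0.05 in edgeR and 0 had an unadjusted p under 0.05. Over all tested genes these shares were 0.00647% and 1.81%. Among 14 genes of fatty acid synthesis, which SREBP1 controls, 10 were under 50% of the other lines in SLMAP3-/- replicate 4, beside 7.41% of all tested genes. The median log2 difference of the 14 genes was -1.20. Scd2, a desaturase, was at 2596, 3227, 4044 and 750.1 CPM in SLMAP3-/- lines and at 3446, 2462, 3330.4 and 3287 CPM in WT lines. Fasn, the fatty acid synthase, was at 562, 773, 1005 and 341 CPM in SLMAP3-/- lines and at 866, 755, 747 and 747 CPM in WT lines. The low line was thus the same for fatty acid genes.

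Acss2, which makes acetyl-CoA from acetate, had the lowest log2 fold change between genotypes of that list, at -0.47 (SE 0.60). Its SLMAP3-/- lines stood at 25.3, 33.6, 46.3 and 6.75 CPM and its WT lines at 20.1, 17.9, 65.1 and 51.6 CPM. Gpam, of triglyceride synthesis, had the highest, at 0.11 (SE 0.10). It was at 24.2, 22.8, 25.3 and 21.5 CPM in SLMAP3-/- and at 22.9, 23.2, 20.4 and 20.6 CPM in WT lines. The fatty acid genes therefore did not all follow the low line.

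Among 13 other ubiquitin ligases of the endoplasmic reticulum and their partners, no gene was under 50% in SLMAP3-/- replicate 4, beside 7.41% of all tested genes. At that share nothing is read from this count in so short a list. Their log2 fold changes ran from -0.08 for Marchf6 (SE 0.08) to 0.11 for Rnf5 (SE 0.12). Rnf139, a ligase related to RNF145, was at 39.0, 39.9, 34.2 and 42.5 CPM in SLMAP3-/- and at 36.6, 40.5, 35.9 and 40.4 CPM in WT lines, with a log2 fold change of 0.02 (SE 0.09). The genotypes overlapped in all 13 genes, where only 1.25% of all tested genes did not overlap. As the set with Rnf145 was chosen by genotype differences, no contrast with Rnf145 is read from this. The SREBP proteases Mbtps1 and Mbtps2 were at 243 and 35.5 CPM in SLMAP3-/- replicate 4. These were 0.955 and 1.07 times the median of the other SLMAP3-/- lines. Their log2 fold changes between genotypes were 0.00 (SE 0.08) and 0.00 (SE 0.14). Erlin2, a partner of ligases that degrade sterol-regulated proteins, had a log2 fold change of 0.22 (SE 0.13), and its genotypes overlapped.

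In the list of 14 genes of cholesterol uptake, efflux and storage, 2 were under 50% in SLMAP3-/- replicate 4, Abcg1 and Gramd1b. The share over all tested genes was 7.41%, so in so short a list nothing is read from this count. Both had low counts, with Abcg1 between 3 and 49 counts and Gramd1b between 22 and 283 counts in a line. Their log2 fold changes were -1.29 (SE 0.72) and 0.43 (SE 0.63), the ends of the list. Among 10 LXR genes, which also hold Abcg1, 1 was under 50% in that line, near the same share, and the median difference was -0.02. Arl4c had the highest log2 fold change of these, at 0.10 (SE 0.43). The LXR genes did not share the low level of the synthesis genes in SLMAP3-/- replicate 4.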

How the data were processed

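The authors aligned reads of stranded poly-A libraries to the GRCm38 transcriptome (GENCODE M25) with Salmon and deposited an estimated count for each gene and line, corrected for transcript length but not for library size. Tool versions and the use of strand in counting are not given in the sources used here. A second deposited table holds the authors' own comparison by DESeq2 and was not used.

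The estimated counts were rounded. In R 4.3.3, edgeR 4.0.16 kept genes by filterByExpr (minimum count 10), normalized by TMM and fitted the quasi-likelihood test of 4 SLMAP3-/- against 4 WT lines without covariates. The p-values of all tested genes were adjusted together by Benjamini-Hochberg. The log2 CPM used a prior count of 2. DESeq2 1.42.0 and limma-voom (limma 3.58.1) were alternatives. Correlations used Python 3.11.15, and the scripts were tested on simulated data. Positions and shared stretches of at least 31 bases come from GENCODE M21, of the same build, and promoters from RefSeq.

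The members and all lists were chosen with earlier results of these data known. Named were all 30 members, Slmap and, of each other list, the genes with the highest and lowest fold change, except 1 gene of the SREBP processing list that is not reported here. Fasn, Scd2, Rnf139, Mbtps1, Mbtps2, Arid4b, Ctsb, Akap9, Rai1, Vps51, Acat3, Gm13502 and Gm43738 were chosen after values were seen. Summed endothelial markers reached 40.5 CPM and neural markers 38.3 CPM. The labels give no batch. The replicate numbers did not pair the lines. In the line names, SLMAP3-/- replicate 3 and WT replicate 4 share a number whose meaning is not given. A pairing by line name was not tested. With at least 256 estimated counts of each member in each line, the spread between lines, not counting error, set the precision.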

Additional observations from a re-analysis of the deposited data

Results flagged for a closer look

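In each group of 4 lines, the gap of the highest or lowest line to its neighbour was set against the whole range by Dixon's criterion. CPM values were used here, while the line differences above were on the log2 scale, where the count can differ. The criterion was passed in 2 of 60 groups, where chance would give about 3 if the groups were independent. As the synthesis genes moved together, they were not, and the count does not weigh the low level of SLMAP3-/- replicate 4. Idi1 in SLMAP3-/- replicate 4, at 109 CPM, had a ratio of 0.920. Sc5d in SLMAP3-/- replicate 4, at 74.5 CPM, had a ratio of 0.834. In both the lowest line was far from the other 3 of its genotype.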

How the results depend on the processing

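No member passed an adjusted p of 0.05 under any of the 18 alternatives tried. These included DESeq2, limma-voom, other filters and scalings, a Y-linked covariate and an adjusted p of 0.1 in edgeR. At 0.1 DESeq2 gave 1 member, Rnf145, with an adjusted p of 0.0809, and this same contrast chose the set. The 29 members other than Rnf145 stayed on the same side of an adjusted p of 0.05 in all 493 comparisons with an alternative, 17 per member, as did Rnf145, while the members with an unadjusted p under 0.05 ranged from 2 to 4. The median log2 fold change of the synthesis genes was -0.27 in limma-voom and -0.25 with the replicate block, and ranged from -0.30 to 0.20 when 1 line was left out, turning positive only without SLMAP3-/- replicate 4. Leaving out 1 line, the members with non-overlapping genotypes ranged from 3 to 5, the median correlation of Rnf145 with the synthesis genes from -0.32 to 0.40, and the median correlation among synthesis genes from 0.66 to 0.97. In each case SLMAP3-/- replicate 4 gave the value farthest from that of all lines. The cause was not tested. The replicate numbers did not pair lines, with correlations of deviations between -0.16 and 0.19 and only number 3 correlating best with its own number. With the replicate block, 0 genes instead of 1 were called over all tested genes, and Rnf145 stayed at a log2 fold change of -0.64. The count of 17 synthesis genes under 50% in SLMAP3-/- replicate 4 was the same with DESeq2 size factors and with prior counts of 0.5 and 5, alternatives chosen after seeing the data. Over all tested genes DESeq2 called 11 genes and edgeR 1.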
